A study of Mus musculus with 24 samples.

Results

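The 41 genes described here are type I interferon-stimulated genes, found by their symbols. The rule uses no measured value, but the list was drawn up with earlier results of these data known. All 41 symbols were found in both deposited count tables, among 18474 gene rows in the table of blood and liver libraries and 22505 rows in the table of antibody libraries. All 41 passed the filter on low counts in both tables. The study profiled neutrophils from mice of the strain labelled NOD.C3C4 by bulk RNA sequencing. It asked how neutrophils of the liver differ after nanoparticle therapy and what cytokine-blocking antibodies change in them. NOD.c3c4 mice are a congenic line on the autoimmune-prone NOD background, used as a model of autoimmune biliary disease. Treated animals had 10 intravenous doses of nanoparticles carrying PDC166, which the labels write as PDC166-NP, and untreated animals are labelled only as untreated. In the table of blood and liver libraries, liver neutrophils gave 2 treated and 2 untreated libraries, and blood neutrophils gave 2 treated and 3 untreated libraries. The libraries of the antibody table are all from the liver of mice given PDC166-NP. There were 3 libraries with the blocking antibody labelled anti-GCF, 3 with anti-IL21R, and 2 each with anti-TGFb, with anti-IL35 and with anti-IL10, beside 3 with the isotype control antibody. Every antibody group and its isotype control therefore carry the nanoparticle treatment, and antibodies in untreated mice are not analysed here. Age, sex and the purity of the sort are not given in the sources used here. The labels do not say that the replicates of a group came from separate animals, so the p-values measure the spread between these libraries, which may be technical.

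Type I interferons are secreted proteins that bind the receptor chains IFNAR1 and IFNAR2, which signal through the kinases JAK1 and TYK2. A complex of transcription factors that includes STAT2 and IRF9 then binds the interferon-stimulated response element in the promoters of target genes. Those targets block viral replication in many ways, sense viral nucleic acid, and feed back on the pathway itself, and neutrophils express many of them. Several of the targets also respond to interferon gamma, which acts through a different element, the gamma-activated site.

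The members lie in several gene clusters (build mm10). Ifit2, Ifit3, Ifit3b and Ifit1 lie together on chromosome 19 at chr19:34550694-34650009. Oas2, Oas3, Oas1g and Oas1a lie at chr5:120730333-120907521, and Slfn5, Slfn8, Slfn1 and Slfn4 lie at chr11:82951349-83190216. Parp14, Dtx3l and Parp9 share chr16:35832874-35972605, and Rsad2 and Cmpk2 share chr12:26442746-26479837. RefSeq promoter windows (GRCm38.p6) were at hand for 30 of the 41 members. The core of the response element, a pair of GAAA with 2 bases of any kind between them, read on either strand, occurred in the 250 bases before the gene start of 13 of these 30 members (43.3%), and in 3.46% of 27025 genes with a window. The gamma-activated site, TTCNNNGAA on either strand, occurred in 5 of the 30 (16.7%) and in 8.13% of all genes. A match is a string of letters and not a bound site. The stretches below are from members that recur in the comparisons that follow and whose window holds the core. Each is read 5′ to 3′ on the strand of the gene, and the capitals mark the core of the response element or its reverse complement, with overlapping matches run together.
Isg15, chr4:156200845-156200914, minus strand: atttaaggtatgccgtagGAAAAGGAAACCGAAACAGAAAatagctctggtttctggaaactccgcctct
Ifit1, chr19:34640774-34640843, plus strand: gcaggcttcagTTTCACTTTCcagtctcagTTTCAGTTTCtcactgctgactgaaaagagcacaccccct
Rsad2, chr12:26456533-26456602, minus strand: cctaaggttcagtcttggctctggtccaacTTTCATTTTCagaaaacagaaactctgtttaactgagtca
Stat2, chr10:128270248-128270315, plus strand: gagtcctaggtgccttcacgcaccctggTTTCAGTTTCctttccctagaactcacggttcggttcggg
Oas3, chr5:120777695-120777764, minus strand: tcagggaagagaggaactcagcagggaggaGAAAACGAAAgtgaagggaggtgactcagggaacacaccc
Bst2, chr8:71537557-71537626, minus strand: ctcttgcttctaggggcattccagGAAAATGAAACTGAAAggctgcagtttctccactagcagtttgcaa
Isg15 holds 3 overlapping matches, Bst2 holds 2 and Ifit1 holds 2 separate ones. The windows of Oasl2, Irf7, Irf9, Ddx58, Cmpk2, Ifi44, Slfn1 and Slfn4 hold neither motif, so no stretch is shown for them. Oas2, Mx1 and Mx2 are among the 11 members without a window.

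Libraries held 34724353 to 46384502 counts in the blood and liver table and 23559681 to 47469935 counts in the antibody table. Values in CPM are counts per fixed number of library counts, after TMM scaling within each table. Members took 0.246% to 0.702% of the counts of a library in the first table and 0.124% to 1.11% in the second. The sum over 12 neutrophil markers was 210000 and 209000 CPM in treated liver, 32400 and 35300 CPM in untreated liver, 89700 and 86700 CPM in treated blood, and 113000, 139000 and 278000 CPM in untreated blood. In the antibody table it was lowest with anti-GCF, at 21300 to 32100 CPM, against 170000 to 211000 CPM with isotype. None of the 12 was at 0 in any library. Untreated liver also held hepatocyte transcripts, with a sum over 10 markers of 13600 and 18200 CPM, against 84.1 and 69.9 CPM in treated liver. In the first table the library numbers of all treated libraries form 1 range and those of all untreated libraries another, so treatment and the range of library numbers cannot be told apart there. The labels do not say what the numbers stand for. Each liver and blood comparison lies within a range. In bulk libraries fewer cells of a type and less RNA per cell cannot be told apart.

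**Figure D1:**
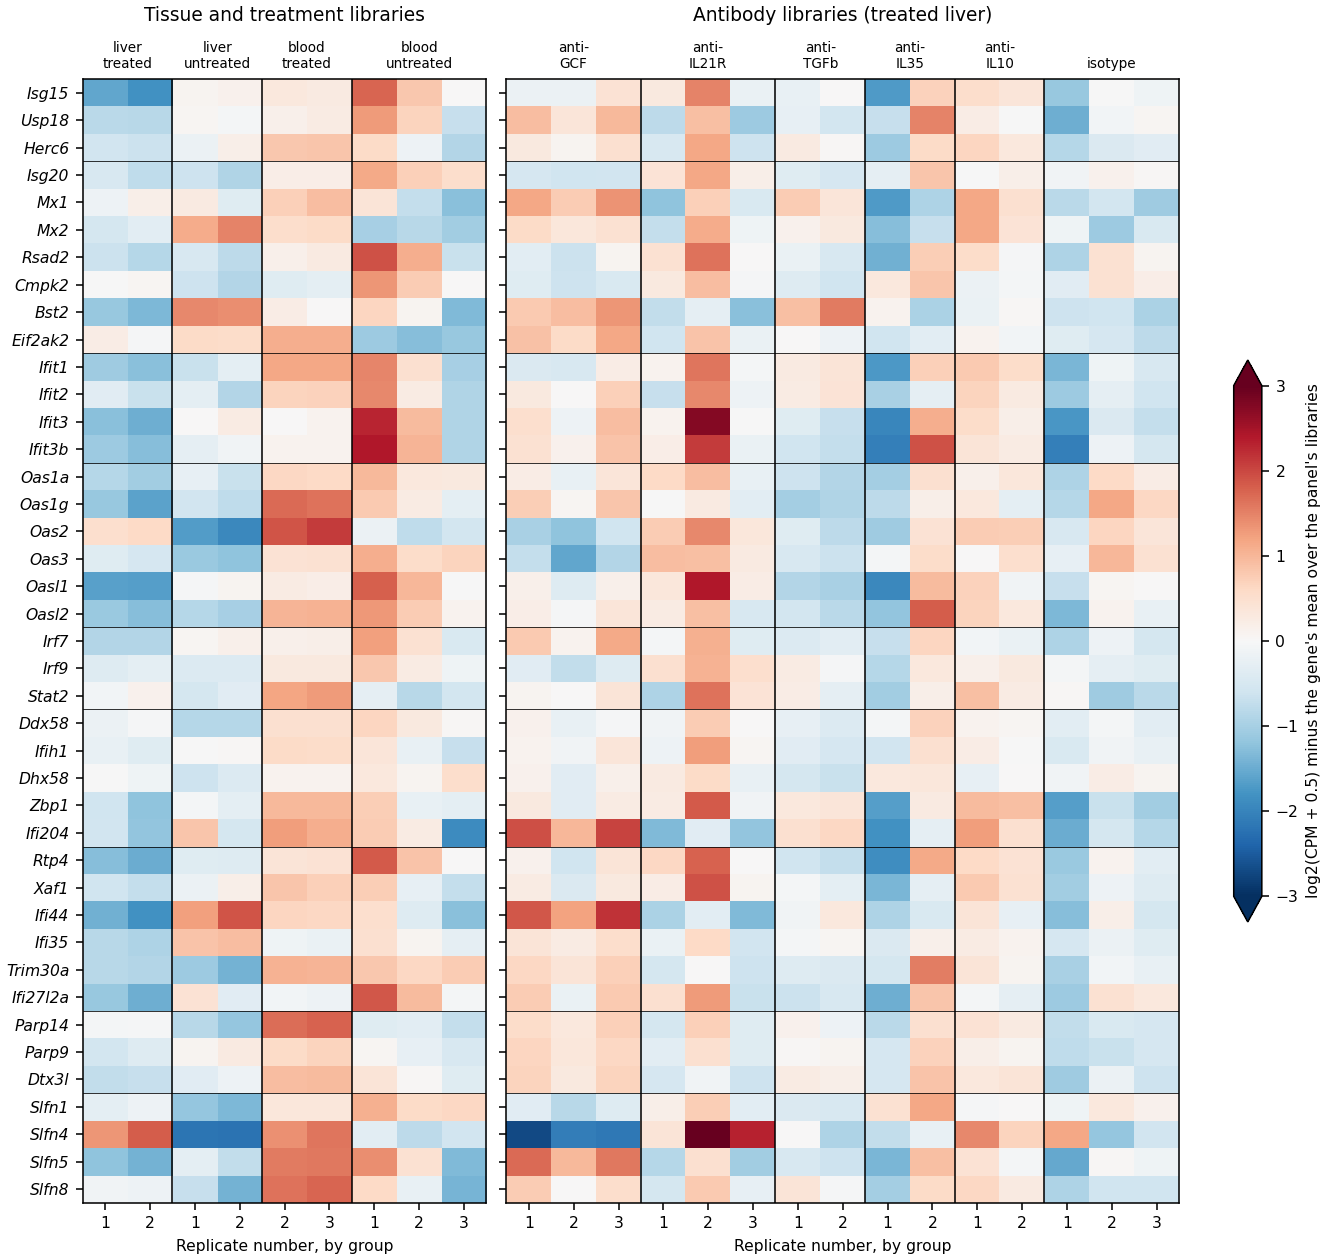
Heat map of the 41 members (rows, grouped by role from the ISG15 system at the top to the Schlafen family at the bottom) in every library (columns, grouped and numbered by replicate), with colour for log2(CPM + 0.5) minus the mean of the gene over the libraries of that table. Slfn4 is high in treated liver (625 and 883 CPM) and low in untreated liver (54.2 and 53.4 CPM), and anti-IL21R replicate 2 is the highest of its group for 40 of the 41 members.

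Per kilobase of exon, Ifi27l2a and Slfn1 were among the most abundant members in every group. Ifi27l2a, a small mitochondrial protein of the ISG12 family, averaged 178 CPM per kilobase in treated liver and 464 in untreated liver, 399.6 in treated blood and 950.1 in untreated blood. Slfn1, a Schlafen protein that restrains the growth of mouse thymocytes, averaged 251 CPM per kilobase in treated liver and 122 in untreated liver. Slfn4, a myeloid Schlafen protein, ranked second in treated liver at 190.1 CPM per kilobase. Ifi44, Mx2 and Mx1 were the least abundant members in most groups, and in treated liver Ifi44 averaged 0.0249 CPM per kilobase.

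Liver neutrophils of treated and untreated mice differed in these genes in both directions. Slfn4 and Oas2 rose by the most with treatment, while Ifi44, Bst2, Mx2, Isg15 and Ifi35 fell. Of the 41 members, 6 were higher and 9 lower in treated liver past an adjusted p of 0.05 (edgeR quasi-likelihood test, Benjamini-Hochberg over 16719 genes). That is 36.6% of the members, beside 64.1% of all genes tested (27.8% higher and 36.3% lower). The median log2 fold change was -0.52 over the members and -0.29 over all genes. Under upper-quartile scaling the median of all genes was -0.02 and the split of members became 10 higher and 6 lower, and with RLE scaling it was 10 and 8.

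Slfn4 stood at 625 and 883 CPM in treated liver, against 54.2 and 53.4 CPM in untreated liver (log2 fold change 3.81 ± 0.25 SE, adjusted p = 2.62e-06). Oas2, which makes the 2-5A that activates RNase L, stood at 62.6 and 67.6 CPM in treated liver, against 13.6 and 11.2 CPM in untreated liver (2.39 ± 0.22, adjusted p = 2.02e-05). Treated libraries lay above untreated ones for both genes without overlap. Slfn1, at 447 and 489 CPM in treated liver against 242 and 212 CPM in untreated liver, rose by 1.04 on the log2 scale (adjusted p = 0.00161). Parp14, a mono-ADP-ribosyltransferase, rose by 0.95 (adjusted p = 0.00152) and Oas3 by 0.74 (adjusted p = 0.00869). Ddx58, the RNA sensor RIG-I, had 82.6 and 92.3 CPM in treated liver, against 52.0 and 51.6 CPM in untreated liver (0.76, adjusted p = 0.00835).

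Among the members that fell, Ifi44 had 0.238 and 0.0672 CPM in treated liver (9 and 3 reads), against 4.13 and 6.86 CPM in untreated liver (180 and 298 reads). Its log2 fold change of -5.18 ± 0.90 (adjusted p = 0.000753) rests on few reads on the treated side. Bst2, the membrane protein tetherin that holds budding virions, stood at 5.34 and 4.55 CPM in treated liver, against 33.9 and 32.8 CPM in untreated liver (-2.76 ± 0.52, adjusted p = 0.00129). Mx2 belongs to the dynamin-like antiviral GTPases, but the mouse gene annotation lists it as a polymorphic pseudogene. It had 0.687 and 0.874 CPM in treated liver, against 3.21 and 4.30 CPM in untreated liver (-2.26 ± 0.39, adjusted p = 0.000686). The 2 groups did not overlap for any of these genes. Isg15, a ubiquitin-like modifier, had 24.5 and 20.7 CPM in treated liver, against 78.5 and 80.0 CPM in untreated liver (-1.81 ± 0.44, adjusted p = 0.0054). Ifi35, a small interferon-induced protein that partners NMI, had 15.9 and 14.8 CPM in treated liver, against 52.2 and 54.5 CPM in untreated liver (-1.79 ± 0.23, adjusted p = 0.000127). Ifi27l2a had 91.6 and 73.1 CPM in treated liver, against 272 and 158 CPM in untreated liver (-1.39 ± 0.51, adjusted p = 0.0376), a call lost in 9 of 17 alternatives. Oasl1, a negative regulator of Irf7 translation in mouse, and Parp9 also fell, by 1.71 (adjusted p = 0.00767) and 0.66 (adjusted p = 0.0144). The RNA-activated kinase Eif2ak2 was 0.48 lower at an adjusted p of 0.0499, a call lost in 16 of 17 alternatives.

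The other members of the liver comparison did not pass the threshold. None of the 4 Ifit genes, whose products bind viral RNA lacking host cap methylation, was called. Ifit3 had 20.3 and 17.5 CPM in treated liver, against 50.1 and 58.2 CPM in untreated liver (-1.52 ± 0.73, adjusted p = 0.096), and Ifit1 had 14.7 and 12.8 CPM against 19.6 and 25.6 CPM (adjusted p = 0.299). Both were lower without overlap between the groups. Irf7, the factor that drives interferon alpha genes, had 72.3 and 73.0 CPM in treated liver, against 139 and 148 CPM in untreated liver (-0.98 ± 0.41, adjusted p = 0.0602). Usp18, the protease that removes ISG15, had 10.96 and 10.7 CPM in treated liver, against 20.5 and 18.6 CPM in untreated liver (adjusted p = 0.145). The other 2 transcription factors stood the other way, and neither was called: Stat2 had 29.98 and 35.13 CPM in treated liver, against 22.2 and 25.2 CPM in untreated liver (adjusted p = 0.0751). Irf9 had 99.1 and 105.8 CPM in treated liver, against 96.4 and 96.5 CPM in untreated liver (adjusted p = 0.783). Oasl2 had 164 and 147 CPM in treated liver, against 196 and 177 CPM in untreated liver (adjusted p = 0.476). Mx1 had 2.43 and 3.16 CPM in treated liver, against 3.40 and 2.03 CPM in untreated liver, and Rsad2, the enzyme viperin, had 64.7 and 56.2 CPM against 72.1 and 58.4 CPM in untreated liver. Mx1 and Rsad2 overlapped between the groups. Groups did not overlap for 12 members higher and 25 members lower in treated liver, beside 38.3% and 48% of all genes.

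The calls for Slfn4, Oas2, Slfn1, Parp14, Ifi35, Mx2, Ifi44, Bst2 and Isg15 held under every alternative tried, while those for Oas3, Ddx58, Oasl1, Parp9, Ifi27l2a and Eif2ak2 were lost in at least 1. Leaving out untreated blood replicate 1 gave 24 calls and leaving out its replicate 3 gave 29, and the cause was not tested. The shares of all genes called in these fits are not given here. Of 12 neutrophil markers 11 were higher in treated liver, of 10 hepatocyte markers all 10 were lower, and of 13 T and NK cell markers 10 were lower. Of 9 B and plasma cell markers 5 were lower, of 10 Kupffer cell and macrophage markers 3 were lower, and of 9 erythroid markers 6 were higher. Their part in the members' differences was not tested.

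In blood, by contrast with the mixed signs in liver, most members that passed the test rose with treatment. Treated blood neutrophils had more Eif2ak2, Parp14, Oas2, Slfn4, Stat2 and Mx2 than untreated ones, while Cmpk2, a mitochondrial nucleotide kinase, and Isg20, an exonuclease, were lower. Of the 41 members, 10 were higher and 2 lower (29.3%), beside 33.6% of all genes tested (17.4% higher and 16.2% lower). Log2 fold changes had a median of 0.22 over the members and 0.04 over all genes. Groups did not overlap for 18 members higher and 5 lower, beside 33.2% and 27.9% of all genes.

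Eif2ak2 had 21.3 and 21.6 CPM in treated blood, against 4.38, 3.79 and 4.21 CPM in untreated blood (2.38 ± 0.18, adjusted p = 0.000183). Parp14 had 242 and 256 CPM in treated blood, against 57.6, 60.0 and 45.2 CPM in untreated blood (2.196 ± 0.17, adjusted p = 0.000198). Oas2 had 164 and 191 CPM in treated blood, against 39.4, 26.03 and 29.8 CPM in untreated blood (2.48 ± 0.19, adjusted p = 0.000222). Untreated replicates lay close together for these genes, and every treated library was above every untreated one. Slfn4 had 645 and 763 CPM in treated blood, against 202, 146 and 169 CPM in untreated blood (2.03 ± 0.20, adjusted p = 0.000438). Stat2 had 73.5 and 78.2 CPM in treated blood, against 26.7, 17.8 and 21.7 CPM in untreated blood (1.78 ± 0.18, adjusted p = 0.000498). Mx2 had 1.96 and 2.07 CPM in treated blood, against 0.358, 0.470 and 0.330 CPM in untreated blood (2.36 ± 0.36, adjusted p = 0.00168). All 3 genes of the Parp9, Parp14 and Dtx3l cluster rose, as did Oas1g and Slfn8. Oas1g shares 45.7% of its 50-base words with other transcripts, and reads may have been split between it and Oas1a.

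Several members did not pass the threshold in blood, where the untreated replicates spread widely. Ifit3 had 50.1 and 53.6 CPM in treated blood, against 244, 95.4 and 26.2 CPM in untreated blood (-1.23 ± 0.68, adjusted p = 0.187). Isg15 had 91.2 and 89.6 CPM in treated blood, against 249, 129.7 and 74.4 CPM in untreated blood (adjusted p = 0.178). Rsad2 had 113 and 123 CPM in treated blood, against 383, 215 and 64.1 CPM in untreated blood (adjusted p = 0.23). In each case replicate 1 lay above and replicate 3 below the treated pair. The same order held for Ifit1, with 70.5 and 70.2 CPM in treated blood, against 87.7, 44.2 and 15.5 CPM in untreated blood (adjusted p = 0.47). Usp18 had 21.8 and 23.1 CPM in treated blood, against 48.0, 31.5 and 11.9 CPM in untreated blood (adjusted p = 0.459). Irf7 had 149 and 152 CPM in treated blood, against 314, 185 and 97.6 CPM in untreated blood (adjusted p = 0.433). Irf9 had 157.5 and 159.5 CPM in treated blood, against 225, 153 and 117 CPM in untreated blood (adjusted p = 0.862). Treated blood stood inside the untreated range for these genes. Oasl2 had 716 and 734 CPM in treated blood, against 880.1, 600.4 and 384 CPM in untreated blood, and was also inside it. Ddx58, with 130.3 and 130.6 CPM in treated blood against 148, 115 and 96.3 CPM in untreated blood, was inside it as well. Ifi27l2a was lower without overlap, at 189.9 and 180.1 CPM in treated blood against 739, 387 and 194 CPM in untreated blood (adjusted p = 0.0698). Mx1 was higher without overlap, at 4.81 and 5.65 CPM against 3.77, 1.49 and 0.867 CPM (adjusted p = 0.0761).

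The calls in blood for Eif2ak2, Parp14, Oas2, Slfn4, Stat2 and Mx2 held under every alternative, and the other 6 were lost in at least 1. Without untreated replicate 3 the count became 10 higher and 13 lower, and without untreated replicate 1 it became 18 higher and 1 lower. Without either treated replicate it fell. The shares of all genes called in these fits are not given here, so the shifts are not a trait of the members. A sum over 13 markers of T and NK cells was 503 and 494 CPM in treated blood, against 51.1, 59.4 and 118 CPM in untreated blood, with 6 of 13 higher past the threshold. Of 10 Kupffer cell and macrophage markers 7 were higher, while their sum was 668 and 642 CPM in treated blood, against 923, 861 and 529 CPM in untreated blood. All 8 platelet markers were higher, with a sum of 1770 and 1730 CPM in treated blood, against 324, 538 and 660 CPM in untreated blood, as were 7 of 9 erythroid and 5 of 9 B and plasma cell markers, while 8 of 10 hepatocyte and 2 of 12 neutrophil markers were lower. The part of these in the members' differences was not tested.

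**Figure D2:**
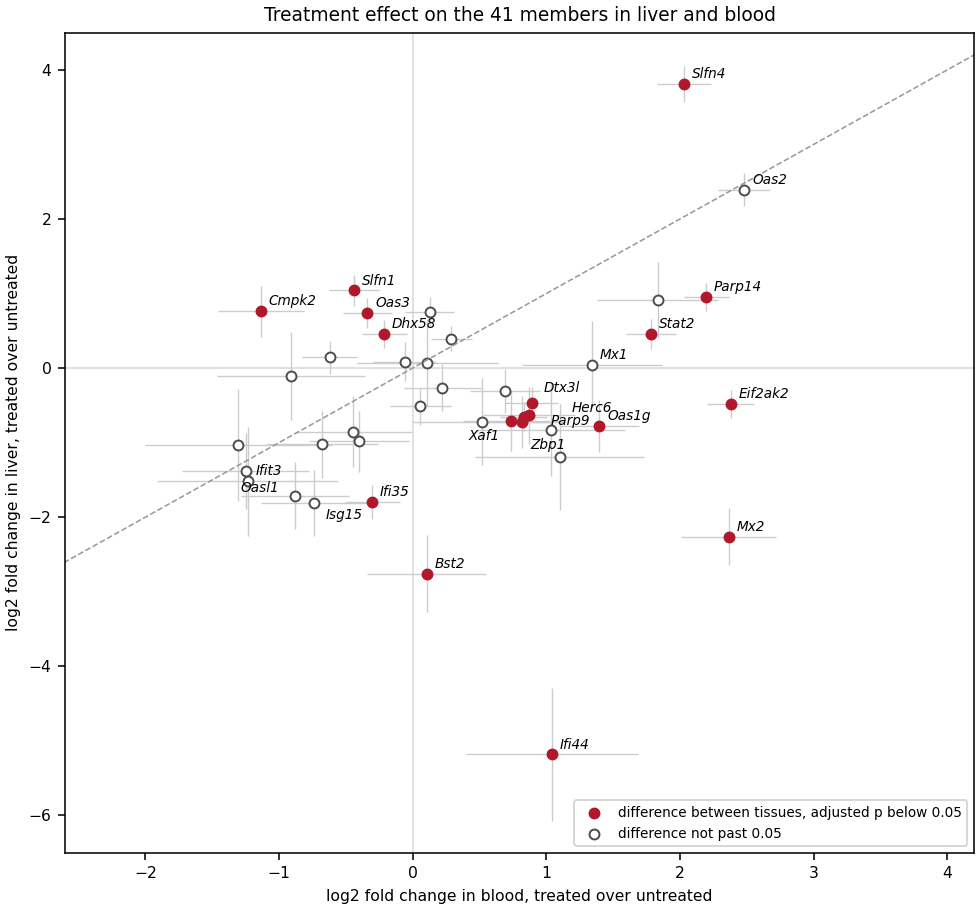
Log2 fold change of each member, treated over untreated, in liver (vertical axis) against blood (horizontal axis); bars are 1 SE, the dashed line marks equal change, and filled points are members whose liver and blood changes differed past an adjusted p of 0.05. Oas2 lies near the line (2.39 in liver and 2.48 in blood), Slfn4 above it, and Ifi44, Mx2, Bst2 and Eif2ak2 far below it.

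The treatment effect itself differed between liver and blood for 18 of the 41 members (43.9%), beside 54.7% of all genes tested (23.3% higher and 31.4% lower in liver). It was more positive in liver for 5 members and more negative for 13. Eif2ak2 differed by -2.86 ± 0.26 (adjusted p = 4.28e-05), with 11.6 and 9.52 CPM in treated liver against 14.8 and 14.6 CPM in untreated liver, beside its rise in blood. Mx2 differed by -4.62 ± 0.53 (adjusted p = 0.000127), since it fell in liver and rose in blood. Slfn4 rose in both tissues, and by 1.78 ± 0.30 more in liver (adjusted p = 0.00101). Oas2 rose alike by the point estimates, with a difference of -0.09 (95% interval -0.74 to 0.56, adjusted p = 0.819). Slfn1, Oas3, Cmpk2 and Dhx58, the helicase LGP2, were the other members with a more positive change in liver. Every member of the Parp9, Parp14 and Dtx3l cluster had a more negative change in liver. The median difference was -0.83 over the members and -0.30 over all genes. With upper-quartile scaling the split was 7 more positive and 11 more negative. Without untreated blood replicate 1 the count was 28, and the share of all genes in that fit is not given here.

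Within treated mice, liver neutrophils had lower levels of many of these genes than blood neutrophils, and none was called higher. Of the 41 members, 0 were higher in treated liver and 24 were lower (58.5%), beside 21.3% of all genes tested (9.71% higher and 11.6% lower). At an unadjusted p below 0.05 the members called numbered 32, and DESeq2 gave 0 higher and 27 lower. The shares of all genes under these other rules are not given here. Treated liver lay below treated blood without overlap for 39 members (95.1%), beside 37.8% of all genes, and above it for 1 member. The median log2 fold change was -1.36 over the members and 0.00 over all genes. Both groups come from the same range of library numbers.

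Trim30a, a tripartite-motif protein that dampens Toll-like receptor signalling in mouse, had 164 and 159 CPM in treated liver, against 601 and 593 CPM in treated blood (-1.89 ± 0.17, adjusted p = 0.000149). Oas1g had 3.83 and 2.67 CPM in treated liver, against 30.9 and 29.3 CPM in treated blood (-3.21 ± 0.36, adjusted p = 0.000435). Dtx3l, the ubiquitin ligase that pairs with Parp9, had 52.0 and 53.3 CPM in treated liver, against 165 and 167 CPM in treated blood (-1.66 ± 0.23, adjusted p = 0.00118). All 6 genes of the OAS family and all 3 of the Parp and Dtx3l group were lower. Parp14, with 72.2 and 73.2 CPM in treated liver, differed by -1.77 ± 0.19 (adjusted p = 0.000314). Isg15 differed by -2.0 ± 0.44 (adjusted p = 0.012) and Ifit1 by -2.36 ± 0.61 (adjusted p = 0.0227). Slfn4 was the member nearest to equal levels, at 0.10 ± 0.22 (95% interval -0.39 to 0.59, adjusted p = 0.797). Trim30a, Parp14, Oas1g, Dtx3l, Oasl2, Oas2, Oas1a and Stat2 were lower under every alternative. Shares of all genes in the fits that leave out a library are not given here. Without any 1 of the 4 libraries compared, 9 to 11 members passed the threshold, all of them lower, and without untreated blood replicate 3 the count was 37. Past the threshold, treated liver had all 8 platelet markers, all 9 B and plasma cell markers, 12 of 13 T and NK cell markers, 7 of 10 Kupffer cell and macrophage markers and 2 of 7 monocyte markers below treated blood. The platelet sum was 4.49 and 4.86 CPM in treated liver, against 1770 and 1730 CPM in treated blood, and the T and NK cell sum was 17.1 and 13.9 CPM, against 503 and 494 CPM in treated blood. Of 12 neutrophil markers 3 were higher and 2 lower, and 9 of 10 hepatocyte markers were higher. The part of these in the members' differences was not tested.

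In untreated mice, 5 members were higher and 17 lower in liver than in blood (53.7%), beside 64.3% of all genes tested (35.6% higher and 28.7% lower). Eif2ak2 stood at 14.8 and 14.6 CPM in untreated liver, against 4.38, 3.79 and 4.21 CPM in untreated blood (1.83 ± 0.18, adjusted p = 1.77e-05). Mx2 was 3.26 ± 0.36 higher in liver on the log2 scale (adjusted p = 4.08e-05), and Ifi35, Ifi44 and Bst2 were the others that were higher. Trim30a had 137.5 and 109 CPM in untreated liver, against 516, 453 and 497 CPM in untreated blood (-1.99 ± 0.17, adjusted p = 7.67e-06). Oas3 had 139.3 and 129.8 CPM in untreated liver, against 642, 443 and 479 CPM in untreated blood (-1.95 ± 0.19, adjusted p = 2.26e-05). All 6 OAS family genes were lower, as in treated mice, whereas the 5 members that were higher in untreated liver were not higher in treated liver. Slfn1 and Slfn4 were lower by 2.03 and 1.68. Over the members the median log2 fold change was -0.93, and over all genes it was 0.10. Without untreated liver replicate 2 fewer members were called, and the share of all genes in that fit is not given here. Of 12 neutrophil markers 10 were lower in untreated liver, as were all 8 platelet markers, while all 10 hepatocyte markers and 6 of 10 Kupffer cell and macrophage markers were higher. Their part was not tested.

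**Figure D3:**
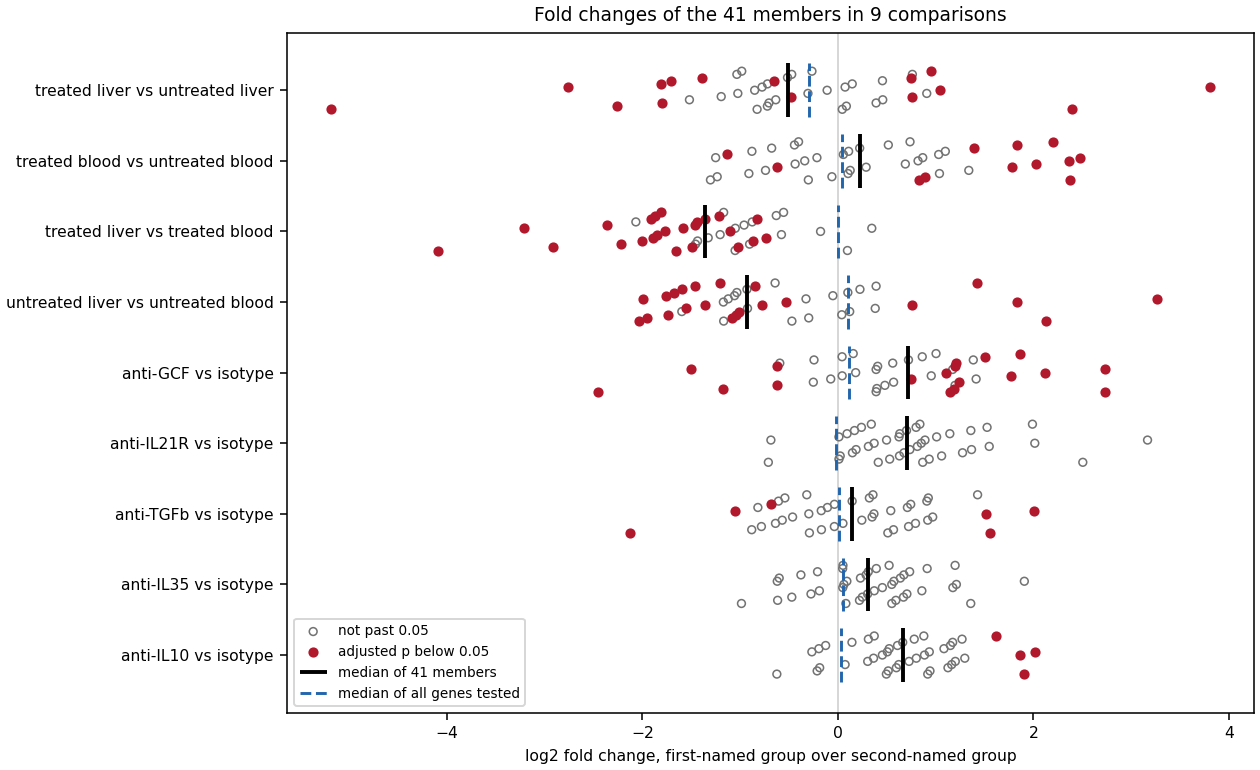
Log2 fold changes of the 41 members in 9 comparisons (rows; first-named group over second-named group), with filled points past an adjusted p of 0.05, a solid bar at the median of the members and a dashed bar at the median of all genes tested. The members' median lies at -1.36 for treated liver against treated blood, and with anti-IL21R it lies at 0.70 with no filled point.

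Members varied between replicates of some groups more than other genes did. Within untreated blood, the highest library exceeded the lowest by a median of 2.29-fold over the members and 1.44-fold over all genes. Replicate 1 was the highest of the 3 for 38 members and replicate 3 the lowest for 33. The summed CPM of the members was 7739, 4975 and 3842 in these 3 libraries. Within anti-IL21R the median spread was 2.68-fold over the members and 1.31-fold over all genes, with replicate 2 highest for 40 of 41 members and the highest library of the antibody table for 25. Its summed CPM was 13560, against 2701 and 3675 in the other 2 libraries, and 70.6% of its member counts were Slfn4. Within anti-IL35 the 2 libraries differed by 2.47-fold over the members and 1.32-fold over all genes, with replicate 1 the lower for 40. Within isotype the spread was 1.85-fold and 1.35-fold, with replicate 1 lowest for 34 members. Treated blood and treated liver, with 2 libraries each, stood at 1.02-fold and 1.13-fold over the members, and at 1.07-fold and 1.12-fold over all genes. Groups of 2 and of 3 libraries are not alike in this measure.

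**Figure D4:**
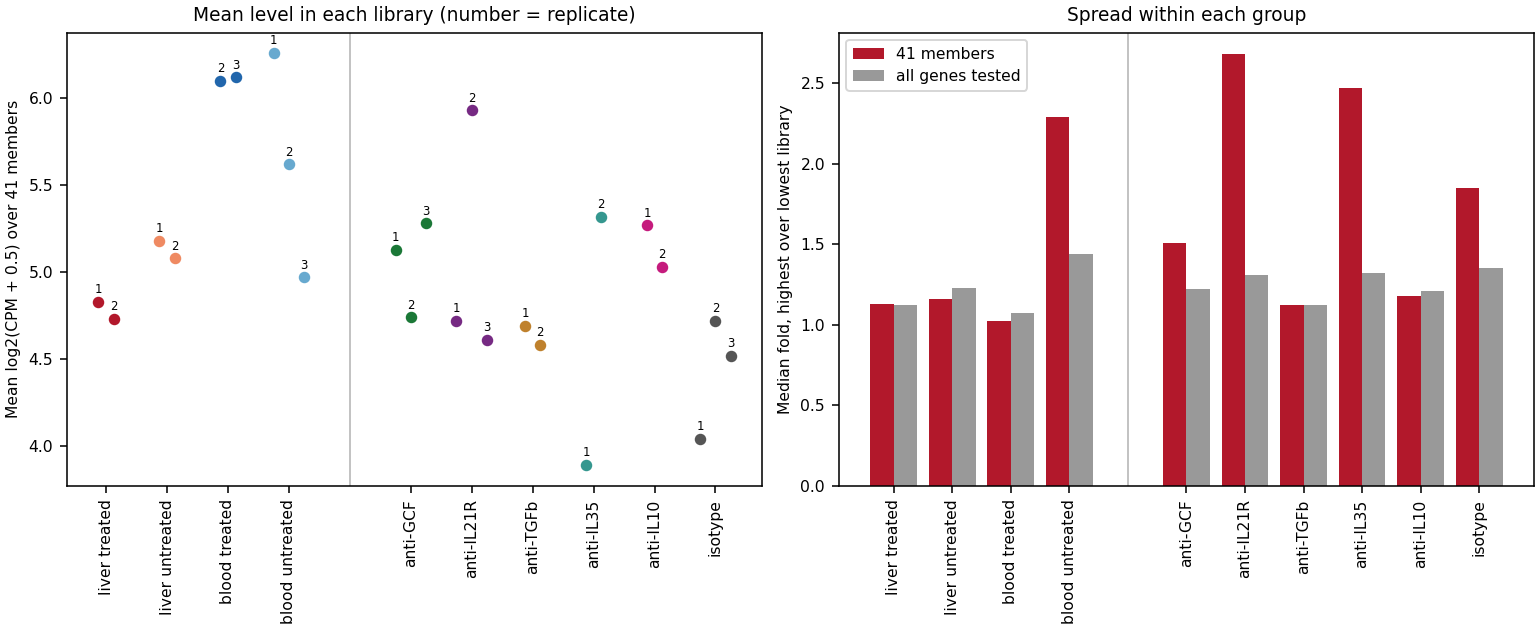
Left, mean log2(CPM + 0.5) over the 41 members in each library, with the replicate number above each point; right, median fold of the highest over the lowest library within each group, for the 41 members and for all genes tested. Anti-IL21R replicate 2, at 5.93, stands above its group and anti-IL35 replicate 1, at 3.89, below its own, and the members' bars exceed those of all genes most in untreated blood, anti-IL21R and anti-IL35.

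Anti-GCF was the antibody with the most members called. Bst2, Ifi204, Eif2ak2, Ifi44 and Mx1 rose relative to isotype, and Oas3, Oas2 and Slfn4 fell. Of the 41 members, 13 were higher and 5 lower (43.9%), beside 57.8% of all genes tested (31.6% higher and 26.3% lower). The median log2 fold change was 0.72 over the members and 0.11 over all genes. Groups did not overlap for 21 members higher and 6 lower, beside 36.9% and 29.8% of all genes.

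Bst2 had 58.4, 64.7 and 84.6 CPM with anti-GCF, against 21.8, 21.95 and 17.2 CPM with isotype (1.77 ± 0.30, adjusted p = 0.000276). Ifi204, a PYHIN-family DNA sensor, had 42.2, 21.8 and 45.2 CPM with anti-GCF, against 3.50, 7.23 and 5.66 CPM with isotype (2.73 ± 0.47, adjusted p = 0.000394). Eif2ak2 had 15.2, 12.1 and 18.6 CPM with anti-GCF, against 6.14, 5.49 and 4.47 CPM with isotype (1.51 ± 0.32, adjusted p = 0.00112). All 3 anti-GCF libraries lay above all 3 isotype libraries for each of these genes. Ifi44 had 6.01, 3.63 and 7.54 CPM with anti-GCF, against 0.236, 1.52 and 0.745 CPM with isotype (2.73 ± 0.58, adjusted p = 0.00129). Mx1 had 9.96, 7.45 and 11.3 CPM with anti-GCF, against 2.16, 2.68 and 1.75 CPM with isotype (2.12 ± 0.47, adjusted p = 0.00179). Irf7 had 153, 95.3 and 195 CPM with anti-GCF, against 46.96, 79.5 and 61.3 CPM with isotype (1.24 ± 0.42, adjusted p = 0.0233). Parp9, Parp14 and Dtx3l all rose, as did Slfn5, Slfn8, Ifi35 and Mx2.

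Among the members that fell with anti-GCF, Oas3 had 98.7, 54.2 and 87.4 CPM, against 136, 322 and 222 CPM with isotype (-1.50 ± 0.32, adjusted p = 0.00133). Oas2 had 27.6, 23.4 and 36.4 CPM with anti-GCF, against 39.1, 86.4 and 70.9 CPM with isotype (-1.17 ± 0.40, adjusted p = 0.0249). Slfn4 had 60.8, 94.4 and 90.6 CPM with anti-GCF, against 899, 179 and 267 CPM with isotype (-2.45 ± 0.88, adjusted p = 0.0315). The isotype values of Slfn4 spread widely, with replicate 1 far above the others, and every anti-GCF value lay below them. Cmpk2 and Slfn1 also fell, by 0.63 each. Bst2, Ifi204, Eif2ak2, Ifi44, Oas3, Mx1, Parp9 and Dtx3l held under every alternative, and the other 10 calls were lost in at least 1. Without anti-GCF replicate 1 or replicate 3 the count was 11, and the shares of all genes in those fits are not given here. The median of the 6 OAS genes was 0.04 with TMM scaling and below 0 with RLE (-0.04) or upper-quartile scaling (-0.07).

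Other members did not pass the threshold with anti-GCF. Isg15 had 36.5, 36.8 and 56.2 CPM with anti-GCF, against 18.5, 41.01 and 37.96 CPM with isotype (adjusted p = 0.55). Ifit3 had 17.6, 11.1 and 23.8 CPM with anti-GCF, against 3.30, 8.98 and 7.30 CPM with isotype (1.41 ± 0.83, adjusted p = 0.166), without overlap. Usp18 had 13.2, 8.80 and 13.6 CPM with anti-GCF, against 2.12, 6.32 and 7.04 CPM with isotype (adjusted p = 0.132), also without overlap. The sum over 10 Kupffer cell and macrophage markers was 5920, 7620 and 10800 CPM with anti-GCF, against 237, 665 and 437 CPM with isotype, and all 10 were higher. Of 12 neutrophil markers 10 were lower, and 6 of 7 monocyte and 6 of 9 B and plasma cell markers were higher. Their part in the members' differences was not tested.

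Set beside the tissue comparison, which shares no library with this one, 4 of the 6 members higher in treated than in untreated liver were lower with anti-GCF: Oas2, Oas3, Slfn1 and Slfn4. They are 66.7% of the first list and 80% of the 5 members lower with anti-GCF. Parp14, by contrast, was higher in both comparisons. Of the 9 members lower in treated liver, 6 were higher with anti-GCF (Bst2, Eif2ak2, Ifi35, Ifi44, Mx2 and Parp9), which is 66.7% of that list and 46.2% of the 13. Among all genes the shares of the treated-liver lists were 54.5% and 54.3%, so the opposite signs were not particular to these members. The shares of the anti-GCF lists among all genes are not given here.

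**Figure D5:**
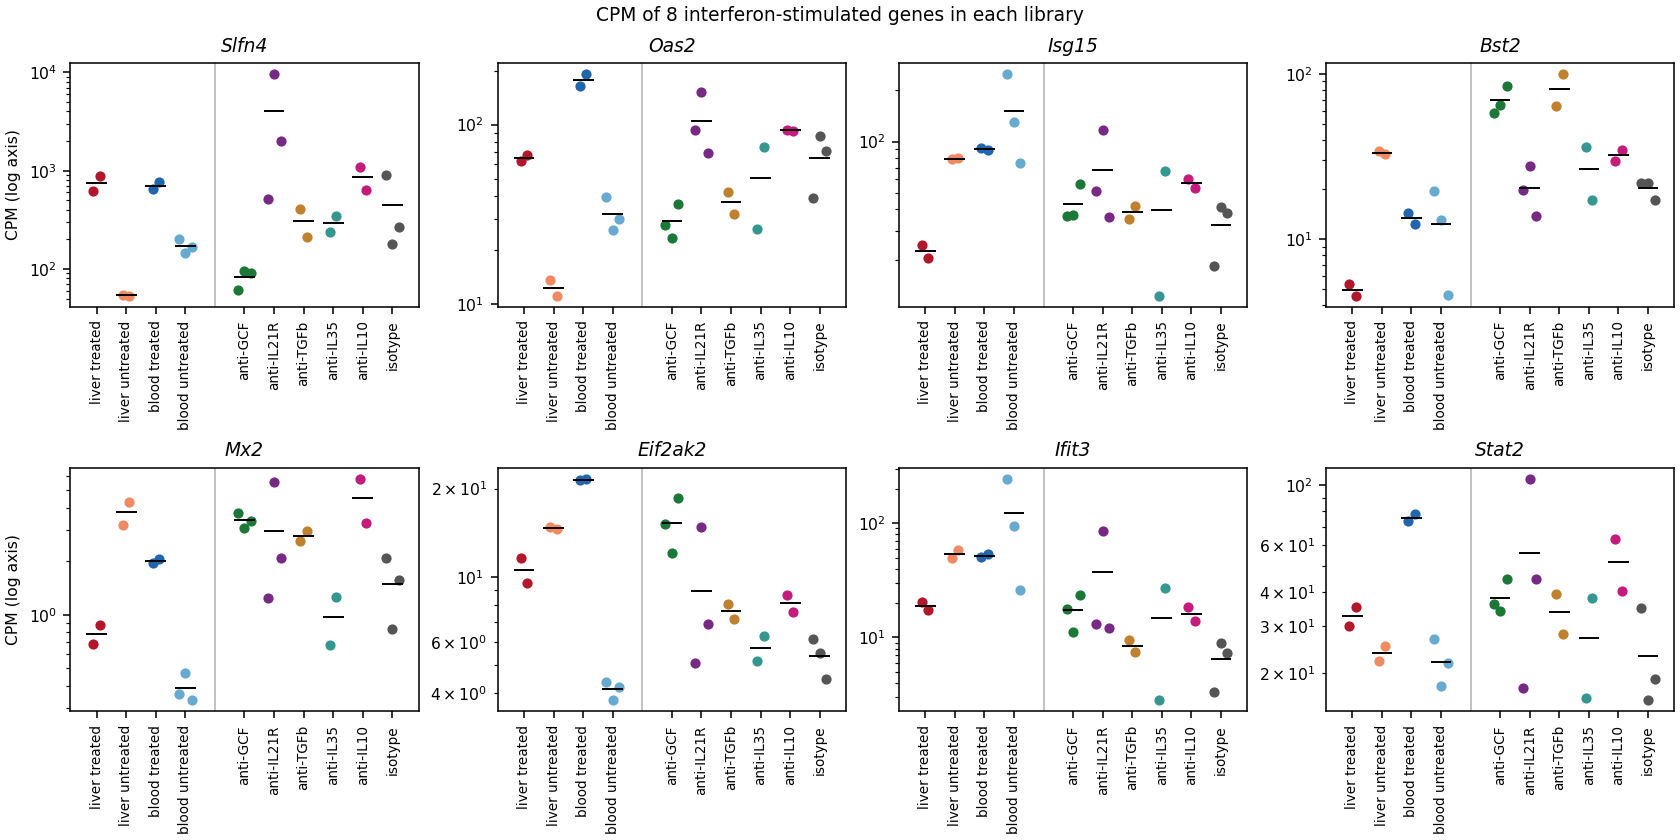
CPM (log axis) of 8 members in each library, with a bar at the group mean; the 4 groups left of the grey line are from the blood and liver table and the 6 to its right from the antibody table, scaled separately. Slfn4 and Oas2 are higher in treated than in untreated liver and lower with anti-GCF than with isotype, and Slfn4 reaches 9572 CPM in anti-IL21R replicate 2.

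With anti-IL21R no member passed the threshold in edgeR, although most stood above isotype. Among all genes edgeR called 2.23% at the adjusted threshold (1.08% higher and 1.15% lower). At an unadjusted p below 0.05 there were 14 members, and DESeq2 called 5, all higher. The shares of all genes under these other rules are not given here. The median log2 fold change was 0.70 over the members and -0.02 over all genes, and without replicate 2 it was 0.18. Slfn4 had 520.4, 9572 and 1988 CPM with anti-IL21R, against 899, 179 and 267 CPM with isotype (3.17 ± 0.91, adjusted p = 0.0784). Without anti-IL21R replicate 2 the estimate for Slfn4 was 1.49 (adjusted p = 0.321). The anti-IL21R values spread over more than the isotype range and overlapped it. Irf9 had 136, 201 and 138 CPM with anti-IL21R, against 93.3, 80.5 and 74.96 CPM with isotype (0.93 ± 0.25, adjusted p = 0.0642). Ifit3 had 13.2, 86.3 and 12.2 CPM with anti-IL21R, against 3.30, 8.98 and 7.30 CPM with isotype (2.505 ± 0.86, adjusted p = 0.118). Both were higher without overlap, as were 9 members in all, beside 12.9% of all genes, and none was lower without overlap. Leaving out isotype replicate 1, or either anti-IL35 library, gave 2 calls, and leaving out anti-IL21R replicate 1 gave 1. Isg15 had 51.2, 116.5 and 35.9 CPM with anti-IL21R, Ifit1 had 23.8, 68.9 and 21.3 CPM, Stat2 had 17.5, 105.8 and 44.8 CPM and Rsad2 had 121, 273 and 89.0 CPM. In each of these replicate 2 was the highest. The sum over the 12 neutrophil markers in that library was 184000 CPM, inside the 176000 to 235000 CPM of the other 2. Against isotype, 0 of 12 neutrophil markers and 6 of 9 erythroid markers were called, the 6 all lower. Of 10 Kupffer cell and macrophage markers 0 were called and 7 were lower without overlap, beside 12.7% of all genes. The part of these markers in the members' values was not tested.

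With anti-IL10, 4 members were higher and none lower (9.76%), beside 17.6% of all genes tested (10.6% higher and 6.98% lower). Ifi204 had 26.2 and 15.03 CPM with anti-IL10, against 3.50, 7.23 and 5.66 CPM with isotype (1.91 ± 0.49, adjusted p = 0.0232). Mx1 had 10.0 and 5.99 CPM with anti-IL10, against 2.16, 2.68 and 1.75 CPM with isotype (1.86 ± 0.50, adjusted p = 0.025). Zbp1, a sensor of Z-form nucleic acid, had 80.6 and 78.7 CPM with anti-IL10, against 12.9, 26.2 and 19.8 CPM with isotype (2.02 ± 0.59, adjusted p = 0.0372). Mx2 was the other call, at 1.62 ± 0.52 (adjusted p = 0.0489). Each was above every isotype library. Anti-IL10 lay above isotype without overlap for 26 members (63.4%), beside 27% of all genes, and below it without overlap for none. Log2 fold changes had a median of 0.66 over the members and 0.03 over all genes. Slfn4 had 1083 and 640.5 CPM with anti-IL10 and overlapped isotype, which ran from 179 to 899 CPM. Ifit3 had 18.3 and 13.9 CPM with anti-IL10, against 3.30, 8.98 and 7.30 CPM with isotype. Isg15 had 60.1 and 53.4 CPM with anti-IL10, against 18.5, 41.01 and 37.96 CPM with isotype (0.80 ± 0.61, adjusted p = 0.377), and Ifit1, Ifit3, Oas2, Oasl2, Irf9, Stat2 and Ddx58 were likewise higher without overlap and without passing the threshold. None of the 4 calls held under every alternative, and the shares of all genes under the alternatives are not given here. The count was 0 without anti-IL10 replicate 1 or isotype replicate 3, 1 without isotype replicate 2, 2 without isotype replicate 1, anti-GCF replicate 3 or either anti-TGFb library, and 8 without anti-IL21R replicate 2 or either anti-IL35 library. The T and NK cell marker sum was 649 and 578 CPM with anti-IL10, against 127, 77.5 and 163 CPM with isotype. Of its 13 markers 10 were higher, and 4 of 12 neutrophil markers were lower, and their part was not tested.

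With anti-TGFb, 3 members were higher and 3 lower (14.6%), beside 27.6% of all genes tested (17.5% higher and 10% lower). Bst2 had 63.6 and 99.6 CPM with anti-TGFb, against 21.8, 21.95 and 17.2 CPM with isotype (2.01 ± 0.33, adjusted p = 0.000943), and this call held under every alternative. Mx1 had 7.46 and 5.51 CPM with anti-TGFb (1.55 ± 0.50, adjusted p = 0.0356) and Ifi204 had 14.9 and 16.5 CPM (1.52 ± 0.49, adjusted p = 0.0392). Oas1g had 0.539 and 0.630 CPM with anti-TGFb, against 0.669, 4.22 and 2.72 CPM with isotype (-2.13 ± 0.66, adjusted p = 0.0307). Dhx58 fell by 0.68 (adjusted p = 0.038) and Oas3 by 1.05 (adjusted p = 0.0454). The median log2 fold change was 0.15 over the members and 0.01 over all genes. Isg15 stood at 35.2 and 41.9 CPM, Ifit3 at 9.498 and 7.43 CPM, Rsad2 at 76.0 and 63.4 CPM and Slfn4 at 406 and 211 CPM with anti-TGFb, all overlapping isotype. Without isotype replicate 2 or isotype replicate 3, 1 call was left, and the calls also fell without either anti-TGFb library. The shares of all genes in these fits are not given here. The T and NK cell marker sum was 715 and 737 CPM with anti-TGFb, with 12 of 13 markers higher past the threshold. Of the other lists, 8 of 10 hepatocyte and 4 of 6 plasmacytoid dendritic cell markers were higher too. The neutrophil marker sum was 101000 and 107000 CPM with anti-TGFb, against 170000 to 211000 CPM with isotype. Of 12 neutrophil markers 1 was lower past the threshold, and 12 were lower without overlap, beside 27.4% of all genes. The part of all these markers was not tested.

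With anti-IL35 no member passed the threshold in edgeR, beside 9.33% of all genes called (4.81% higher and 4.51% lower). At an unadjusted p below 0.05 there were 5 members, and DESeq2 called 1. The shares of all genes under these other rules are not given here. The 2 libraries stood apart from each other. Isg15 had 12.4 and 67.2 CPM with anti-IL35, against 18.5, 41.01 and 37.96 CPM with isotype (0.29 ± 0.61, adjusted p = 0.803). Oasl2 had 67.2 and 539 CPM with anti-IL35, against 60.3, 164 and 130.3 CPM with isotype (1.36 ± 0.65, adjusted p = 0.205). Ifit3 had 2.82 and 26.9 CPM with anti-IL35, beside the isotype values above, (1.18 ± 0.91, adjusted p = 0.439) and Slfn4 had 239 and 346 CPM (adjusted p = 0.72). Replicate 2 was above the isotype range for Isg15, Oasl2 and Ifit3, and replicate 1 was below it for Isg15 and Ifit3 and inside it for Oasl2. Leaving out replicate 1 gave 9 members higher and a median of 0.80, and leaving out replicate 2 gave no call and a median of -0.62. The sum over Kupffer cell and macrophage markers was 315 CPM in replicate 1 and 2460 CPM in replicate 2, and its part was not tested.

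The remaining values of 11 members of the named panel ran as follows across the antibody groups. Ifit1 had 16.4, 15.6 and 26.1 CPM with anti-GCF, 23.8, 68.9 and 21.3 CPM with anti-IL21R, 27.0 and 29.0 CPM with anti-TGFb, 6.39 and 36.9 CPM with anti-IL35, 38.5 and 32.6 CPM with anti-IL10, against 8.26, 20.1 and 15.8 CPM with isotype. Rsad2 had 70.7, 56.0 and 93.4 CPM with anti-GCF, 121, 273 and 89.0 CPM with anti-IL21R, 76.0 and 63.4 CPM with anti-TGFb, 31.9 and 148 CPM with anti-IL35, 130.0 and 85.7 CPM with anti-IL10, against 45.97, 121 and 93.8 CPM with isotype. Oasl2 had 175, 150.5 and 197 CPM with anti-GCF, 181, 285 and 110.4 CPM with anti-IL21R, 104 and 87.7 CPM with anti-TGFb, 67.2 and 539 CPM with anti-IL35, 242 and 192 CPM with anti-IL10, against 60.3, 164 and 130.3 CPM with isotype. For Ifit1, Rsad2 and Oasl2 the highest library was anti-IL21R replicate 2 or anti-IL35 replicate 2, and the lowest was anti-IL35 replicate 1 or isotype replicate 1. Irf7 had 153, 95.3 and 195 CPM with anti-GCF, 85.4, 188 and 69.5 CPM with anti-IL21R, 67.2 and 71.3 CPM with anti-TGFb, 54.9 and 140.1 CPM with anti-IL35, 83.6 and 77.7 CPM with anti-IL10, against 46.96, 79.5 and 61.3 CPM with isotype. Irf9 had 76.9, 58.0 and 74.2 CPM with anti-GCF, 136, 201 and 138 CPM with anti-IL21R, 116 and 95.7 CPM with anti-TGFb, 53.5 and 122 CPM with anti-IL35, 108 and 119 CPM with anti-IL10, against 93.3, 80.5 and 74.96 CPM with isotype. Stat2 had 36.0, 34.0 and 44.6 CPM with anti-GCF, 17.5, 106 and 44.8 CPM with anti-IL21R, 39.4 and 28.0 CPM with anti-TGFb, 16.1 and 37.96 CPM with anti-IL35, 63.4 and 40.4 CPM with anti-IL10, against 34.9, 15.8 and 18.9 CPM with isotype. Irf7 was highest by its mean with anti-GCF, and Irf9 and Stat2 with anti-IL21R. Among neighbours in the order of means, Irf9 with anti-IL21R lay apart from Irf9 with anti-IL10, and the neighbours of Stat2 all overlapped. Usp18 had 13.2, 8.80 and 13.6 CPM with anti-GCF, 3.71, 13.04 and 2.93 CPM with anti-IL21R, 5.61 and 4.48 CPM with anti-TGFb, 4.01 and 19.8 CPM with anti-IL35, 7.96 and 6.64 CPM with anti-IL10, against 2.12, 6.32 and 7.04 CPM with isotype. Oas2 had 27.6, 23.4 and 36.4 CPM with anti-GCF, 93.0, 151 and 69.5 CPM with anti-IL21R, 42.4 and 31.9 CPM with anti-TGFb, 26.2 and 74.7 CPM with anti-IL35, 93.8 and 92.3 CPM with anti-IL10, against 39.1, 86.4 and 70.9 CPM with isotype. Mx1 had 9.96, 7.45 and 11.3 CPM with anti-GCF, 1.52, 7.18 and 2.89 CPM with anti-IL21R, 7.46 and 5.51 CPM with anti-TGFb, 0.953 and 1.97 CPM with anti-IL35, 10.0 and 5.99 CPM with anti-IL10, against 2.16, 2.68 and 1.75 CPM with isotype. Oas2 had its 2 highest means with anti-IL21R and anti-IL10 and its lowest with anti-GCF, while Mx1 had its highest with anti-GCF. Ddx58 had 58.6, 45.4 and 51.8 CPM with anti-GCF, 49.4, 90.5 and 54.1 CPM with anti-IL21R, 45.1 and 39.9 CPM with anti-TGFb, 51.4 and 86.7 CPM with anti-IL35, 57.3 and 55.8 CPM with anti-IL10, against 42.9, 51.4 and 43.1 CPM with isotype. Ifi27l2a had 204, 104 and 209 CPM with anti-GCF, 167, 292 and 75.8 CPM with anti-IL21R, 76.4 and 85.6 CPM with anti-TGFb, 43.2 and 214 CPM with anti-IL35, 116 and 99.9 CPM with anti-IL10, against 56.0, 164 and 150.1 CPM with isotype. All neighbours overlapped for Ddx58, and for Ifi27l2a every pair overlapped but the lowest, anti-IL10 and anti-TGFb.

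Over all 6 antibody groups together, 19 members differed past the threshold, beside 76.4% of all genes tested. Bst2 (adjusted p = 0.000167), Ifi204 (adjusted p = 0.000537), Ifi44 (adjusted p = 0.000736) and Slfn4 (adjusted p = 0.0017) led them. Group means of Isg15 were highest with anti-IL21R and lowest with isotype, and no neighbours in the order were apart, and the same held for Ifit3, Stat2, Mx1, Rsad2, Oasl2 and Ddx58 in their own orders. In the blood and liver table the order for Isg15 and Usp18 was untreated blood, treated blood, untreated liver and treated liver. Of neighbours in that order only the blood groups overlapped. Untreated blood, which spread widely, also spanned untreated liver. Isg15 ran from 74.4 to 249 CPM in untreated blood and from 78.5 to 80.0 CPM in untreated liver. Usp18 ran from 11.9 to 48.0 CPM in untreated blood and from 18.6 to 20.5 CPM in untreated liver. Oas2 had the order treated blood, treated liver, untreated blood and untreated liver, with every neighbour apart.

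Other genes of the pathway were counted from a list of 46, of which the 35 tested in the blood and liver table are mostly sensors, adaptors, regulatory factors and negative regulators. In treated against untreated liver 16 of the 35 were higher and 6 lower, beside 27.8% and 36.3% of all genes. The receptor chain Ifnar1 averaged 94.2 CPM in treated liver and 31.9 CPM in untreated liver (1.56 ± 0.18, adjusted p = 7.22e-05), and Ifnar2 averaged 98.0 and 46.1 CPM (1.09 ± 0.19, adjusted p = 0.00072). Irf1, a factor induced by interferon gamma, rose by 1.31 in liver (adjusted p = 0.000294) and by 0.65 in blood (adjusted p = 0.0192). In treated against untreated blood 9 of 35 were higher and 4 lower, beside 17.4% and 16.2% of all genes. Ifng, the type II interferon itself, averaged 3.09 CPM in treated blood and 0.363 CPM in untreated blood (3.08 ± 0.46, adjusted p = 0.00163), beside 0.293 CPM in treated liver and 0.299 CPM in untreated liver (adjusted p = 0.965). Ifnb1, the gene of interferon beta, was tested in the antibody table only. It averaged 0.418 CPM with anti-IL35 and 2.56 CPM with isotype (-2.63 ± 0.75, adjusted p = 0.0465), while the members' calls with anti-IL35 were 0. Ifnb1 with anti-IL10 averaged 8.60 CPM (adjusted p = 0.0526) and with anti-TGFb 7.75 CPM (adjusted p = 0.0547). Ifng averaged 33.6 CPM with anti-TGFb and 18.6 CPM with anti-IL10, against 4.10 CPM with isotype, and both rises passed (3.04 and 2.19 on the log2 scale). The T and NK cell marker sum was 503 and 494 CPM in treated blood, against 51.1, 59.4 and 118 CPM in untreated blood. In liver it was 17.1 and 13.9 CPM treated, against 107 and 55.3 CPM untreated. It was 715 and 737 CPM with anti-TGFb and 649 and 578 CPM with anti-IL10, against 127, 77.5 and 163 CPM with isotype. The part of this and the other cell type markers in these pathway values was not tested.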

How the data were processed

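RNA came from RNeasy Mini columns and was sequenced in bulk from TruSeq Stranded mRNA libraries, per the labels' protocols. Reads were processed with Bowtie2 2.2.5, STAR 2.5.3a, Partek and DESeq2 on mm10, per the submitters' processing notes; the counting tool and its strand setting are not given in the sources used here. The authors deposited 1 table of expected counts for 9 blood and liver libraries, of whose values 44.4% were not whole and which were rounded to whole numbers here, and 1 table of raw counts for 15 antibody libraries. Of the rows in the first table, 15 carry date-like symbols (0.079% of counts). All 24 samples were mapped to 10 groups. Each table was fitted on its own, with all its groups, by edgeR 4.0.16 (quasi-likelihood test, robust, TMM scaling, low counts filtered by group; R 4.3.3, limma 3.58.1), and p-values were Benjamini-Hochberg adjusted over 16719 and 16812 genes with a threshold of 0.05. Standard errors are the log2 fold change divided by the square root of F. Heat map values are log2(CPM + 0.5). Comparisons of 1 table share controls where they share a group, and such values are set side by side only. Alternatives were DESeq2 1.42.0, RLE and upper-quartile scaling, other filters, only the groups compared, a replicate block and each library left out. A panel of 14 members is named with values in every library, plus, per comparison, up to 4 members a direction with the smallest adjusted p. Other members appear by count or where a sentence needed an example. The members, lists and rules were chosen with earlier results of these data known. Promoter windows are RefSeq (GRCm38.p6). Gene positions are those of the deposited blood and liver table on mm10, with each end, deposited just past the gene, moved back to its last base. Between 10.8% and 57.6% of the 50-base words of Ifit3, Ifit3b, Oas1a, Oas1g, Ifi204, Slfn8, Herc6, Rtp4 and Slfn4 occur in other transcripts, so their split of reads is uncertain. The named-gene rule also covers a pathway gene that is not reported here.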

Additional observations from a re-analysis of the deposited data

Results flagged for a closer look

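For 18 members the change with treatment differed between liver and blood past an adjusted p of 0.05 (edgeR interaction term). Values are the log2 change in liver minus that in blood. The difference was negative for Ifi44 (-6.22), Mx2 (-4.62), Bst2 (-2.86), Eif2ak2 (-2.86), Oas1g (-2.17), Zbp1 (-1.54), Herc6 (-1.50), Ifi35 (-1.49), Parp9 (-1.48), Xaf1 (-1.44), Dtx3l (-1.36), Stat2 (-1.32) and Parp14 (-1.24). It was positive for Cmpk2 (1.90), Slfn4 (1.78), Slfn1 (1.48), Oas3 (1.08) and Dhx58 (0.67). The calls for Dhx58, Xaf1, Herc6 and Zbp1 were lost under at least 1 alternative, and the other 14 held under all. The neutrophil markers had a more positive change in liver for 11 of 12, and the part of this was not tested.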

How the results depend on the processing

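No member reversed its sign of call under any alternative. With only the groups compared in the fit, the members called numbered 26 in treated against untreated liver, 39 in treated liver against treated blood, 12 with anti-TGFb and 9 with anti-IL10. DESeq2 called 5 members with anti-IL21R and 1 with anti-IL35. With no filter on low counts, anti-IL10 had 2. Leaving out 1 library at a time gave 11 to 29 calls in treated against untreated liver, 6 to 23 in blood, 9 to 37 in treated liver against treated blood, 13 to 33 in untreated liver against untreated blood and 14 to 28 for the difference in treatment effect. It gave 11 to 22 with anti-GCF, 0 to 2 with anti-IL21R, 1 to 9 with anti-TGFb, 0 to 9 with anti-IL35, 0 to 8 with anti-IL10 and 13 to 29 over the 6 groups together. The cause of these shifts was not tested. Shares of all genes called under the alternative settings are not given here. The counts therefore show how far the calls depend on the setting, and not a trait of the members. Where a group was left with 1 library, that library is assumed to vary like the other groups. The labels do not state that replicate numbers pair the samples. Correlations of deviations between libraries of 1 number ran from -0.24 to 0.29. In a group of 2 libraries the deviations mirror each other, so these values cannot decide whether the numbers pair samples. With a replicate block, anti-TGFb had 1 call by the number in the title and 2 by the number in the library name, and no other count moved by over 1.5 times. Groups of 2 or 3 libraries, and low counts of Ifi44, Mx2 and Oas1g, limit the precision.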

Other observations

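A list of 43 other interferon-stimulated genes, of which 41 were tested, had 14 higher and 9 lower in treated against untreated liver, beside 27.8% and 36.3% of all genes. Ddx60, a helicase that aids RIG-I signalling, averaged 115 CPM in treated liver and 19.2 CPM in untreated liver (2.58 ± 0.21, adjusted p = 8.74e-06). Lgals9, the lectin galectin-9, averaged 176 CPM in treated liver and 969 CPM in untreated liver (-2.46 ± 0.24, adjusted p = 2.79e-05). The hepatocyte marker sum was 84.1 and 69.9 CPM in treated liver, against 13600 and 18200 CPM in untreated liver. The part of this and the other cell type markers in the values of this list was not tested. In treated liver against treated blood 0 of the list were higher and 22 lower, beside 9.71% and 11.6% of all genes. Ifitm1, a membrane protein that blocks viral entry, averaged 158 CPM in treated liver and 2214 CPM in treated blood (-3.81 ± 0.55, adjusted p = 0.00144). With anti-GCF 18 were higher and 10 lower, beside 31.6% and 26.3% of all genes, with Ifi205, a PYHIN-family gene, at 24.1 CPM with anti-GCF and 1.76 CPM with isotype (3.78 ± 0.35, adjusted p = 3.23e-06).

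A list of 17 interferon gamma-inducible GTPases had 14 higher and 0 lower in treated against untreated blood, beside 17.4% and 16.2% of all genes. In treated against untreated liver 1 was higher and 7 lower, beside 27.8% and 36.3% of all genes. Iigp1, an immunity-related GTPase, averaged 18.2 CPM in treated blood and 1.51 CPM in untreated blood (3.58 ± 0.36, adjusted p = 0.000451). In liver Iigp1 averaged 11.3 CPM in treated mice and 272 CPM in untreated mice (-4.60 ± 0.41, adjusted p = 1.51e-05). Against isotype, 16 of the 17 were higher with anti-TGFb, 15 with anti-GCF and 15 with anti-IL10, 3 with anti-IL21R and 0 with anti-IL35, and none was lower. The shares of all genes that were higher were 17.5% with anti-TGFb, 31.6% with anti-GCF, 10.6% with anti-IL10, 1.08% with anti-IL21R and 4.81% with anti-IL35. Iigp1 averaged 84.8 CPM with anti-TGFb and 2.51 CPM with isotype (5.07 ± 0.41, adjusted p = 1.58e-05). The part of the cell type markers in the values of these GTPases was not tested.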
